A study of Mus musculus with 8 samples.

Results

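Hopx and Hopxos are 2 genes of the 55276 gene symbols counted in this study, and both were taken from the table by symbol. The pair was chosen by its counts in these libraries, because Hopxos had the strongest rise in the Cyto-ID High fraction, so the High and Low values of both genes are given as a description and carry no test. Hopx encodes HOPX, the smallest homeodomain protein, and Hopxos is a non-coding gene on the opposite strand of the same locus. The libraries were bulk RNA-seq of sorted esophageal epithelial cells from C57BL6 mice aged 14 to 15 weeks, with no mutation, transgene or drug named for any animal. Live cells, which exclude the dye DAPI, were sorted for integrin beta-1, a surface protein of basal epithelial cells, and then by Cyto-ID, a dye that stains autophagic vesicles, into a Low and a High fraction. The animals Female1, Female2, Male1 and Male2 each gave 1 library of each fraction, which left 4 Low and 4 High libraries.

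HOPX has a homeodomain fold but lacks the residues with which other homeodomain proteins hold DNA, and it acts by binding other proteins. Serum response factor (SRF) and histone deacetylases are its best known partners in heart muscle, where it restrains transcription of SRF targets. In lung and heart progenitors it has been tied to activated SMAD proteins and to repression of Wnt genes. In the intestine and the hair follicle Hopx marks slow-cycling stem cells, and in stratified epithelium HOPX protein is also found in the differentiating layers above the basal layer. An opposite-strand RNA is transcribed from the other DNA strand of its host gene, and the function of Hopxos is not described here.

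On the mouse build GRCm38, in the GENCODE M21 annotation, Hopx (ENSMUSG00000059325.14) lies on the minus strand at chr5:77086988-77115121, a span of 28134 bases with 3 transcripts. Its longest-reaching transcript joins a distal exon of 275 bases, which is untranslated, to an exon of 157 bases with 144 coding bases and a last exon of 829 bases with 75 coding bases. The other 2 transcripts start 19844 and 19868 bases downstream of that distal start. Hopxos (ENSMUSG00000087541.1) lies on the plus strand at chr5:77094532-77102303, wholly inside the span of Hopx, with 1 transcript of 2 exons of 1452 and 209 bases. The exons of the 2 genes share 412 bases, which are 27.2% of the 1516 exonic bases of Hopx and 24.8% of the 1661 of Hopxos. The Hopx exon with 144 coding bases is wholly within the shared part. RefSeq gives a shorter Hopxos span, chr5:77098830-77102313. That span leaves out the GENCODE exon of 1452 bases and holds no GENCODE exon of Hopx.

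**Figure D1:**
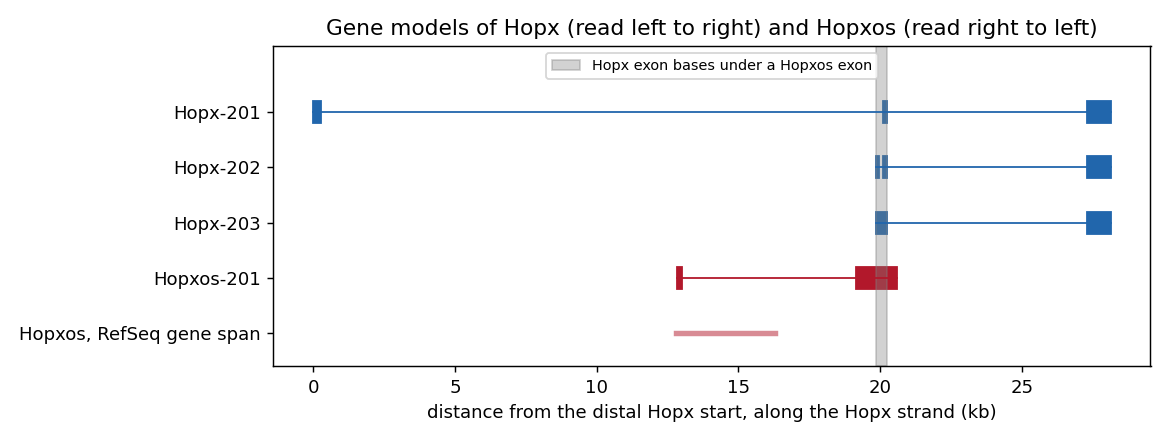
Map of the locus, with the distance from the distal Hopx start in kb along the Hopx strand on the horizontal axis. Boxes are exons and lines introns of the GENCODE M21 transcripts, the lowest bar is the RefSeq span of Hopxos, and the shaded 412 bases are exonic on both strands.

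What the counts of the 2 genes can hold was read from the table itself. Of 182 genes whose exons lie wholly under exons of the other strand, with at least 1000 counts on the gene over them, 181 (99.5%) had 0 counts in all 8 libraries. For protein-coding genes this was 16 of 17, against 3065 of 16356 (18.7%) protein-coding genes with no exonic base under the other strand. Reads in bases covered on both strands were thus left out of the counts whatever their strand. By these models the Hopx counts rest on 1104 exonic bases, the distal exon and the last exon, and the exons next to the inner starts are wholly uncounted. The Hopxos counts rest on 1249 bases, all of which lie in introns of the longest-reaching Hopx transcript. The Hopxos exon of 209 bases and part of that of 1452 bases lie before the inner Hopx starts, outside the transcripts that begin there. Hopxos RNA and unspliced Hopx RNA cannot be told apart in these counts.

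The sequences before the start sites are shown because both genes were higher in the same fraction and their annotated start sites differ. RefSeq (GRCm38.p6) gave 3 start sites for the 2 genes, and the 250 bases before each are printed 5′ to 3′ on the strand of the gene, with the motif found in capitals.
Hopx distal start, chr5:77115124-77115373, minus strand: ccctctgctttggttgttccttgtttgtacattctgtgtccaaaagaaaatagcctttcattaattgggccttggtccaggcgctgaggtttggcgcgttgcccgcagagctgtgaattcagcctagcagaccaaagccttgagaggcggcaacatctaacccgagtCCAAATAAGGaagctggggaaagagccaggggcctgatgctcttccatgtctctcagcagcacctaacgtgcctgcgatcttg
Hopx inner start, chr5:77095268-77095517, minus strand: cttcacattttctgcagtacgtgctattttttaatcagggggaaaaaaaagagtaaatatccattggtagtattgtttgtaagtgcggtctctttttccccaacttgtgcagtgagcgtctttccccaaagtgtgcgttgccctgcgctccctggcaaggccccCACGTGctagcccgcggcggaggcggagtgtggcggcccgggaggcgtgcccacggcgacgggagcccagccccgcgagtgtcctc
Hopxos start, chr5:77098580-77098829, plus strand: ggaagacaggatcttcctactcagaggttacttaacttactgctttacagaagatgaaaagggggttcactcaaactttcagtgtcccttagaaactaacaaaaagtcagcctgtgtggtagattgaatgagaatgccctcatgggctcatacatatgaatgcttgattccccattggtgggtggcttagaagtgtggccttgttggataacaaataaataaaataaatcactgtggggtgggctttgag
Of 5 motifs searched on both strands, the distal Hopx window held a CArG box, the site that SRF binds. Between this box and the start lay 73 bases. The inner Hopx window held CACGTG, an E-box, with 80 bases between it and the start. The Hopxos window held none of the 5 motifs. The CArG box was present in 482 of 32851 mouse promoter windows of this length (1.47%) and the E-box in 1978 (6.02%). The AP-1 site TGANTCA was in 6.75% of the windows, the TATA box TATAAA in 12.4% and the GC box GGGCGG in 32.7%. No motif overlaps another in the printed sequences. The Hopxos window precedes the RefSeq start, which lies inside the GENCODE span of Hopxos. GC content was 52.4% before the distal Hopx start, 57.6% before the inner start and 42.0% before Hopxos.

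The libraries held 26285150 to 28599954 counts in Low and 27486049 to 29301054 in High, and 17344 genes had enough counts to be tested. Basal keratinocyte genes were present in both fractions and lower in High. All 14 of 14 basal markers tested fell, where edgeR at an adjusted p under 0.05 called 25.3% of all tested genes lower, 23.4% higher and 48.7% in either direction. Among the markers was Krt5, a keratin of basal cells, which went from 8710 ± 807 to 838 ± 305 CPM (counts relative to the size of the library; SD, n = 4). Itgb1, the gene of the integrin beta-1 used in the sort of both fractions, went from 370.2 ± 31.6 to 68.2 ± 18.2 CPM. T and natural killer cell genes, which include known Hopx-expressing cell types, summed to 12.4 to 22.3 CPM over 14 genes in Low and 0.360 to 23.1 CPM in High, with no gene of the list at 0 in all libraries and 0 of 5 tested genes called, against 48.7% of all tested genes. Of 12 muscle genes 2 fell (16.7%) and of 8 fibroblast genes 1 fell (12.5%), against 25.3% of all tested genes. The fibroblast genes summed to 317 to 501 CPM in Low and to 471, 152, 336 and 38.7 CPM in the High libraries of Female1, Female2, Male1 and Male2. Their part in the Hopx and Hopxos values was not tested. The 10 gastric genes in the table, none high enough to test, summed to 19.1 CPM in the Low and 115 CPM in the High library of Female2, and to at most 1.08 CPM in the other libraries. Without the High library of Female2 the fitted log2 fold change was 3.58 for Hopx and 4.58 for Hopxos.

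Hopx was detected in every library and was higher in every High than in every Low library. The Low libraries held 1449 and 1953 counts in the females (Female1, then Female2) and 651 and 2431 in the males (Male1, then Male2). High libraries held 16021, 13816, 13046 and 11428 counts in the same order of animals. As CPM after TMM scaling, which divides each library by an effective size, the Low values were 44.8, 53.7, 20.2 and 73.4, and the High values were 618, 601, 497 and 588. The mean was 48.0 ± 22.1 CPM in Low and 576 ± 54.0 CPM in High (SD, n = 4), a ratio of 12.0, and the lowest High library was 6.78-fold above the highest Low library. The edgeR fit across all genes, with sex as a covariate, put the log2 fold change at 3.58 with a standard error of 0.36. Male1 was lowest in both fractions. The spread was wide in Low, with a coefficient of variation of 45.9%, and narrow in High, at 9.37%.

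Hopxos was near the limit of detection in Low and well above it in High. The Low libraries had 33 and 23 counts in the females and 2 and 28 in the males, 86 in sum. The High libraries had 368, 312, 540 and 150 counts, 1370 in sum. In CPM the Low values were 1.02, 0.632, 0.0621 and 0.845, and the High values were 14.2, 13.6, 20.6 and 7.72. The mean was 0.640 ± 0.416 CPM in Low and 14.0 ± 5.26 CPM in High (SD, n = 4), a ratio of 21.9, and the fractions did not overlap, with the lowest High library 7.57-fold above the highest Low one. The fitted log2 fold change was 4.48 with a standard error of 0.56. The animal with the fewest counts in Low, Male1, had the most in High.

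**Figure D2:**
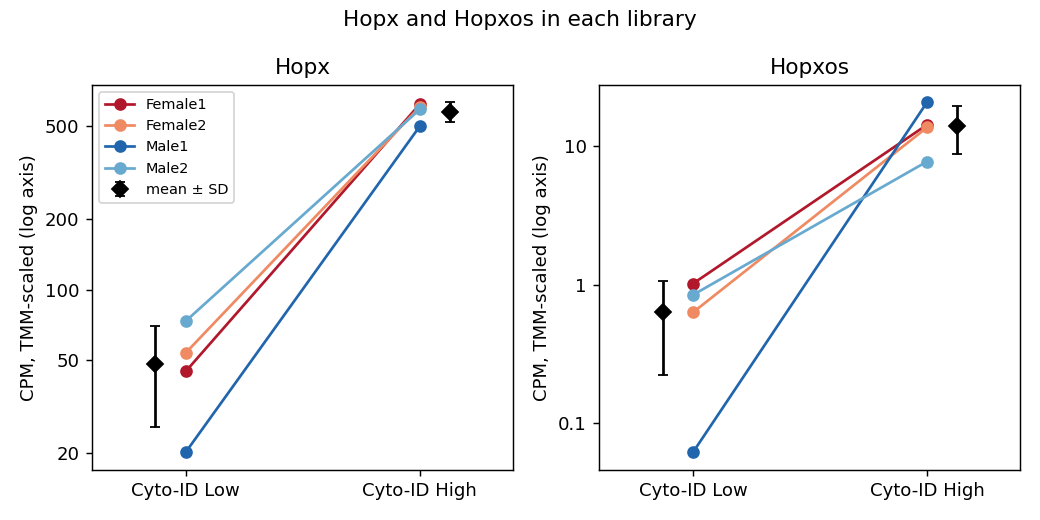
TMM-scaled CPM of Hopx and Hopxos in each library on log axes, with lines joining the Low and High library of an animal and, beside the points, the mean and SD of each fraction. Hopx runs from 20.2 to 73.4 in Low and from 497 to 618 in High, and Hopxos from 0.0621 to 1.02 and from 7.72 to 20.6.

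edgeR called 48.7% of tested genes at an adjusted p under 0.05, 23.4% higher and 25.3% lower in High, and both genes were among those called higher. Every High library exceeded every Low library for 23.6% of tested genes. The rule that chose the pair used this contrast, so nothing is read from these counts. In bulk libraries fewer cells of a type and less RNA per cell cannot be told apart.

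Within animals the High to Low ratio of Hopx was 13.8 and 11.2 in the females and 24.6 and 8.01 in Male1 and Male2, or 3.72 ± 0.68 on the log2 scale (SD, n = 4). For Hopxos the ratio was 13.9 in Female1 (95% counting interval 9.75 to 20.5), 21.5 in Female2 (14.1 to 34.4) and 9.13 in Male2 (6.07 to 14.2). In Male1 it was 331, with an interval of 91.3 to 2744, because it rests on 2 counts in Low. These intervals come from an exact binomial calculation and cover counting error only. In 3 of the 4 animals the Hopxos ratio lay between 9.13 and 21.5, in the range of the Hopx ratios of 8.01 to 24.6. Male1 had the largest ratio for both genes and Male2 the smallest for both.

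Per kilobase of bases that could be counted, Hopx stood at 43.5 CPM in Low and 522 CPM in High on average. Hopxos stood at 0.512 and 11.2 CPM per kilobase. The level of Hopx was 49.7, 96.1, 368 and 98.2 times that of Hopxos in the Low libraries, in the order of animals used above, and 49.3, 50.1, 27.3 and 86.2 times in the High libraries. By mean level per kilobase of all exons, Hopx moved from place 1627 among 17017 genes in Low to place 216 in High. Hopxos moved from place 14491 to place 5415.

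As a share of the summed counts of the 2 genes, Hopxos made up 2.23% (95% Wilson interval 1.59 to 3.11) and 1.16% (0.777 to 1.74) in the Low libraries of Female1 and Female2, and 0.306% (0.0840 to 1.11) and 1.14% (0.789 to 1.64) in those of Male1 and Male2. In High it made up 2.25% (2.03 to 2.48), 2.21% (1.98 to 2.46), 3.97% (3.66 to 4.32) and 1.30% (1.11 to 1.52) in the same order. The mean was 1.21 ± 0.79% in Low and 2.43 ± 1.12% in High (SD, n = 4). The share was higher in High in all 4 animals, but by 0.0187 percentage points in Female1, 0.157 in Male2, 1.04 in Female2 and 3.67 in Male1, and the fractions overlapped. The intervals cover counting error only, and since the pair was chosen by the rise of Hopxos, these shares are a description with no test of the fractions.

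**Figure D3:**
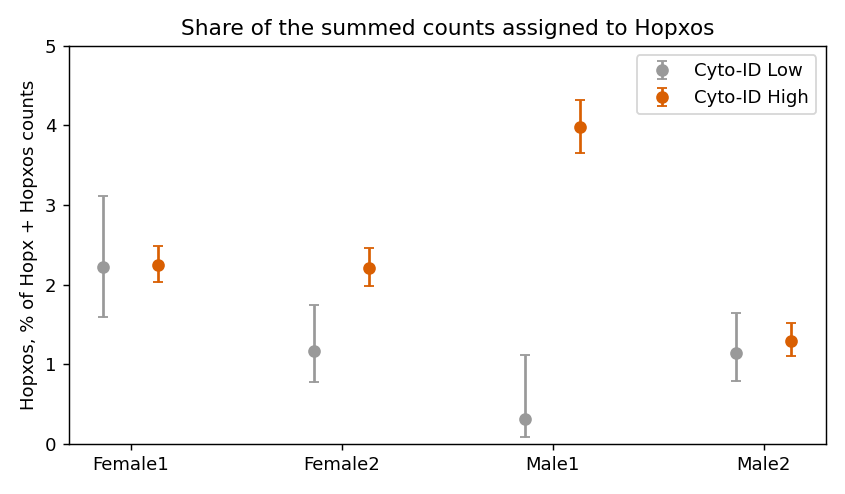
Hopxos as a percentage of the summed Hopx and Hopxos counts in each library, with 95% Wilson intervals and the animals side by side. The share is 2.23% and 2.25% in the 2 libraries of Female1, and 0.306% and 3.97% in those of Male1.

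Genes called higher that reached a mean of 5 CPM and moved the same way in all 4 animals were ranked by fitted log2 fold change. Of these 3298 genes Hopxos had the largest change, which restates the choice of the pair by its rise. Hopxos reached a mean of 5 CPM only through High, with 14.0 CPM there and 0.640 CPM in Low. It was followed by the pseudogene Gm8080 at 4.46, the blood group glycosyltransferase Abo at 4.44 and the secreted phospholipase Pla2g3 at 4.42, so the first 4 genes lay within 0.06 of each other, far less than the standard error of 0.56 for Hopxos. Hopx had place 126, after the transcription factor gene Creb3l1 and the acetylcholinesterase gene Ache, both at 3.59, and before the processed pseudogene Gm7049 and the lipase gene Lipk, both at 3.58. Over all 17344 tested genes, 12 genes of under 5 CPM stood above Hopxos, which was then at place 13, and Hopx was at place 197. The place of Hopx ran from 107 to 153 over 18 other ways of fitting. That of Hopxos ran from 1 to 58 over 17 of them, with place 53 without the High library of Male1 and place 58 without both libraries of that animal. A place of 27 was found with the animal as a block, 18 without the Low library of Female2 and 30 without the Low library of Male2.

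The genes most like Hopx were found by the root mean square difference of centred log2 CPM over the 8 libraries, among 11042 genes. Nearest was Asprv1, a retroviral-like aspartic protease that processes filaggrin in the upper epidermis, at 0.086. Its Low libraries held 177, 219, 70.8 and 272 CPM and its High libraries 2248, 2107, 1717 and 2302 CPM, in the order Female1, Female2, Male1, Male2. Like Hopx it was lowest in Male1 in both fractions and highest in Male2 among the Low libraries. The edgeR log2 fold change of Asprv1 was 3.50 (SE 0.38). Asprv1 and the other nearest genes were picked for this likeness, so their High and Low levels and their order of animals are a description and carry no test. Next came the pseudogene Gm6551 at 0.149, Teddm3 at 0.152, the processed pseudogene Gm5873 at 0.152 and Gdpd1, a phosphodiesterase gene, at 0.160. Reads of near-identical parent genes can end in such pseudogenes, so their counts are uncertain. In all 239 genes lay within 0.5 of Hopx. Hopxos was 0.77 from Hopx, which was place 433 in that order.

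No gene came within 0.5 of Hopxos. Its nearest were the nucleoside transporter Slc28a3 at 0.562, the desmosomal cadherin Dsg1b at 0.564, the cornified-layer protein gene Hrnr at 0.566, the citrulline-forming enzyme Padi1 at 0.573 and the pseudogene Gm6557 at 0.588, whose counts are uncertain for the same reason. Hopx was at place 67 in this order. Dsg1b went from 62.0 ± 26.7 to 945 ± 70.1 CPM and Padi1 from 3.08 ± 1.84 to 53.2 ± 2.36 CPM. By the largest single difference between libraries in place of the root mean square, 3 of the 5 nearest genes were shared for each of the 2. With a prior count of 0.5 in place of 2 in the log2 values, all 5 were shared for Hopx and 2 for Hopxos.

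Sex was not used in the choice of the pair and could be tested. Summed over both fractions, Hopx had 17470 and 15769 counts in the females and 13697 and 13859 in the males, and Hopxos had 401 and 335 against 542 and 178. For Hopx the male minus female log2 difference of these sums was −0.22 (SE 0.19, edgeR adjusted p = 1.00), with both males below both females in counts. For Hopxos it was −0.02 (SE 0.42, edgeR adjusted p = 1.00), with 1 male above and 1 below both females. edgeR called 4 of 19687 genes (0.0203%) in this comparison and 284 had an unadjusted p under 0.05. The difference between males and females in the High against Low change was −0.10 for Hopx (SE 0.70) and 0.87 for Hopxos (SE 1.09), and the edgeR adjusted p was 1.00 for both. edgeR called 0 of 17344 genes (0.0%) for this difference and 19 had an unadjusted p under 0.05. Apart from that of the Hopx sums, these standard errors are wide. With 2 females and 2 males, none of the tests shows that the sexes were alike.

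Of 13 tested genes for proteins that bind HOPX or control its gene, 0 were called higher and 5 lower (38.5%), against 23.4% and 25.3% of all tested genes, with a median log2 fold change of −0.33 against −0.09 over all tested genes. Smad5 fell by 1.55 (SE 0.16, edgeR adjusted p = 5.54e-05) and Smad3 fell by 1.38, with Smad1 and Smad4 also lower, though these 2 were not called without both Male1 libraries. These are signal carriers of the BMP and TGF-beta pathways. Smad2, another of them, stood at 0.47 (SE 0.19, edgeR adjusted p = 0.0638). It was called higher with RLE size factors, with 10 counts required in every library, with DESeq2, with the animal as a block and without the High library of Female1 or Male1, with an adjusted p down to 0.0187, and was at −0.12 with total counts alone. Srf went from 279 ± 90.6 to 162 ± 71.8 CPM and fell by 0.82 (SE 0.26, edgeR adjusted p = 0.0263). That call was lost with no covariate, without both Male1 libraries and without the High library of Female1, Female2 or Male1, with an adjusted p of up to 0.0997. The deacetylase genes were not called, with Hdac1 at 0.25 and Hdac2 at −0.13, and neither was Epc1 at −0.33. Epc1 was called lower with 10 counts required in every library, without the Low library of Female2 and with total counts alone. Myocd, Gata4, Nkx2-1 and Nkx2-5, the heart and lung partners, were too low to test. Scaled by total counts alone, which moved the median of all genes by −0.55, 12 of the 13 were called lower, and without both Male1 libraries 2 were.

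Of 22 tested genes that SRF activates, 3 rose (13.6%) and 6 fell (27.3%), against 23.4% and 25.3% of all tested genes, and the median was −0.05. The share that fell was thus near that of all genes. Ccn2, a matricellular growth factor, fell by 3.57 from 110 ± 65.5 to 8.94 ± 2.54 CPM. Zyx, a focal adhesion protein, fell by 1.91. Smooth muscle actin Acta2 fell by 1.54 (edgeR adjusted p = 0.0178), a call that was lost without the Low library of Female1, Male1 or Male2, with an adjusted p of up to 0.0864. Ccn1, a relative of Ccn2, fell by 1.47 and tropomyosin Tpm1 fell by 1.35. Acta2 is also in the muscle list, of which 2 of 12 genes fell. Egr3, an immediate early gene, rose by 1.72 from 123 ± 39.8 to 396 ± 119 CPM. With total counts alone 1 rose and 9 fell, and 1 rose without the High library of Female2 or of Male2.

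Genes that mark reserve or progenitor cells alongside Hopx in other epithelia were mostly lower. Of 16 tested, 2 rose and 9 fell (56.2%, against 25.3% of all tested genes), with a median of −0.94. Of the 2 that rose, Krt19, a keratin of simple epithelia, went from 1.39 to 2.62 CPM (edgeR adjusted p = 0.0323), and its call was lost in 10 of 18 alternatives, with an adjusted p of up to 0.437. These were total counts alone, no filter, no covariate, the fit without both Male1 libraries, and the fits without the Low library of any 1 animal or the High library of Female2 or Male1. With 10 counts required in every library 6 fell. Lrig1, an inhibitor of epidermal growth factor receptors, fell from 153 ± 15.9 to 47.2 ± 9.06 CPM, and Bmi1, a Polycomb protein, from 22.8 ± 2.15 to 11.5 ± 2.07 CPM. Krt15, a keratin that is also in the basal list, fell by 2.11. Tert, the telomerase catalytic subunit, fell by 3.45 from a mean of 3.98 CPM. Ascl2, a transcription factor of intestinal stem cells, fell by 3.41 from 2.96 CPM, and Mex3a, an RNA-binding protein, fell by 2.64. Clu, which encodes the chaperone clusterin, rose by 3.33 from 25.1 ± 9.99 to 252 ± 53.0 CPM.

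Of 13 tested genes of a Wnt list, which holds targets and other genes of the pathway, 7 fell (53.8%, against 25.3% of all tested genes). In this list 1 gene, Znrf3, rose by 0.60, and the median was −1.06. With total counts alone Znrf3 stood at 0.024 (edgeR adjusted p = 0.851) and 0 genes of the list were called higher. Axin2, a feedback inhibitor of the pathway, fell by 3.37 from 5.78 ± 0.521 to 0.561 ± 0.388 CPM. Dkk3, a secreted Dickkopf protein, fell from 38.0 ± 9.27 to 5.83 ± 3.31 CPM, the transcription factor gene Tcf7 fell by 1.89 and the cyclin gene Ccnd1 fell by 1.63. In the basal keratinocyte list, where every gene fell, the median was −2.78, and Trp63, the basal cell master factor, fell by 2.06.

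Late keratinocyte genes rose with Hopx. Of 32 tested 28 rose (87.5%, against 23.4% of all tested genes) and 0 fell, with a median of 3.02. The desmoglein gene Dsg1a rose by 4.19, loricrin (Lor) by 4.12, Sprr3 by 4.11, Cnfn by 3.86, Krt4 by 3.75, Sbsn by 3.58 and Krt13 by 3.07, so the Hopx value of 3.58 lay among them. Dsg1a and the Sprr genes have near-identical copies, so their counts are uncertain. Flg2, Crnn, Krt6a and Krt6b were not called. Within the Low fraction the libraries had the same order for Hopx and for the summed CPM of the list, which was 14857 for Male1, 21338 for Female1, 25517 for Female2 and 34262 for Male2. In High the sums were 172280, 174353, 217480 and 283186 in the same order of animals, while Hopx was highest in Female1 and Hopxos highest in Male1. The part of this gene group in the values of Hopx and Hopxos was not tested.

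**Figure D4:**
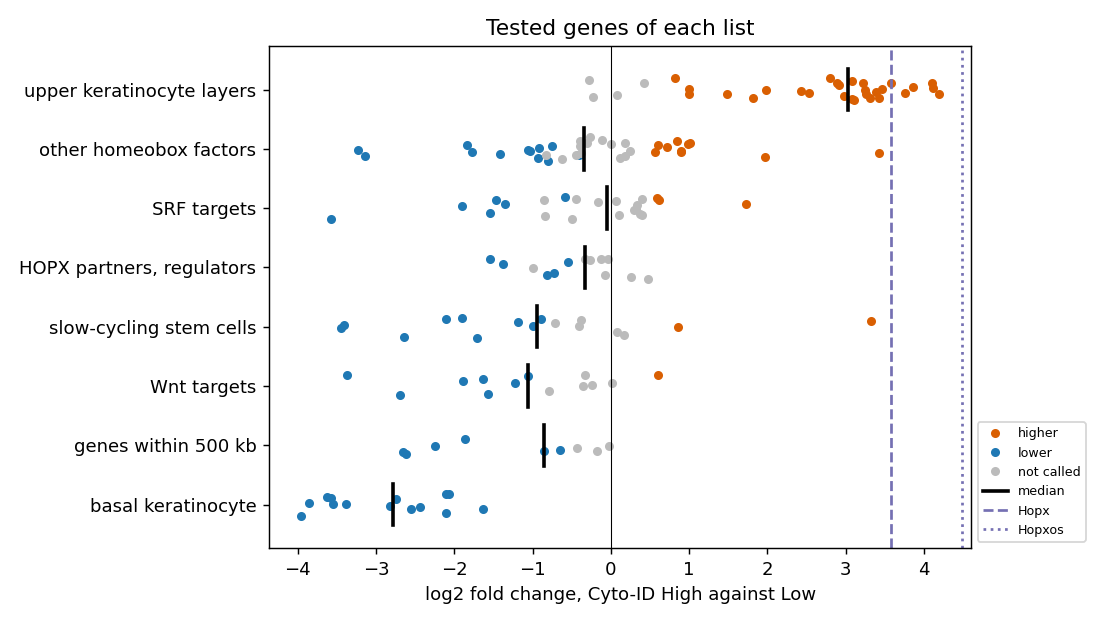
Log2 fold change of High against Low for each tested gene of the lists, one row of points per list. Colours give the edgeR call, black bars the medians and vertical lines the values of Hopx (3.58) and Hopxos (4.48). The late keratinocyte genes lie to the right with a median of 3.02 and the basal genes to the left with a median of −2.78. The row of Wnt targets also holds other genes of that pathway.

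Of 36 other homeobox genes tested, 10 rose (27.8%) and 12 fell (33.3%), with a median of −0.34. Both shares were near the 23.4% and 25.3% of all tested genes. Dlx5 rose from 1.30 ± 0.589 to 14.0 ± 4.46 CPM, by 3.42 on the log2 scale, and Dlx3, which acts in keratinocyte differentiation, from 4.87 ± 1.91 to 18.6 ± 5.86 CPM. The repressor gene Tgif2 fell by 3.23 and its relative Tgif1 fell by 1.84, while Six5 fell by 3.14 and Dlx4 fell by 1.77. The number that rose was 6 without the High library of Female2 and 2 with total counts alone, where 15 fell.

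Tested genes around the locus were lower or not called. Within 500 kb of Hopx on either side the table held 27 other genes, of which 9 could be tested, and 6 of the 9 fell (66.7%, against 25.3% of all tested genes) and 0 rose, with a median of −0.86 against −0.09 over all genes. With no filter on low counts 2 neighbours were called higher. The nearest tested gene, Srp72, which encodes a part of the signal recognition particle, lies 87.1 kb away on the side of the Hopx 3′ end and stood at 134 to 177 CPM in Low and 126 to 172 CPM in High. On the other side the nearest was Rest, a repressor of neuronal genes 150.4 kb away, which fell by 0.86 (SE 0.13, edgeR adjusted p = 0.000514). Paics and Ppat, which make purines from a shared promoter, had log2 fold changes of −2.65 and −1.87. Igfbp7, a secreted binding protein of insulin-like growth factors, fell by 2.62 and the centriole gene Cep135 fell by 2.24. Gm15831, a non-coding gene on the same strand as Hopx whose 3′ end lies 1.7 kb beyond the distal Hopx start, had 0 counts in the 4 Low libraries and 2, 7, 3 and 6 in the High libraries of Female1, Female2, Male1 and Male2, too few to be tested.

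Genes named by the symbol of another gene plus os, as Hopxos is, were set beside that gene as host. Strand, overlap and coding were not checked for these pairs. The table held 288 such pairs by symbol, and in 45 besides Hopx both genes were tested. In the 11 pairs whose host rose, 7 opposite-strand genes rose and 1 fell, with Arhgap27 the host in 2 of these pairs. In the 13 pairs whose host fell, 4 fell and 4 rose, and in the 21 pairs whose host was not called 1 rose and 5 fell. Over all 45 pairs 12 opposite-strand genes rose (26.7%) and 10 fell (22.2%), near the 23.4% and 25.3% of all tested genes. Slc6a19os rose by 2.93 with its host, an amino acid transporter gene, at 4.32, Irx3os by 2.02 with the homeobox gene Irx3 at 0.85, and Tnfsf13os by 1.84 with its host, a cytokine gene, at 2.64. Dlx4os fell by 2.65 with Dlx4 at −1.77. In 5 of the 16 pairs with both genes called the directions were opposite, as for Etaa1os at 1.72 with Etaa1 at −1.18 and Srrm4os at 1.60 with Srrm4 at −1.90, both named after their values were seen. Over 218 annotated antisense genes that overlap exons of 1 protein-coding gene, 48 rose (22.0%) and 32 fell (14.7%), against the same 23.4% and 25.3%. Among them 38 of 76 with a host that rose also rose and 3 fell, and 20 of 53 with a host that fell also fell and 4 rose. In 65 of these pairs both genes were called, 58 in the same direction. Because counting did not use strand, reads from unspliced host RNA can be counted on the opposite-strand gene wherever its exons lie in introns of the host.

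**Figure D5:**
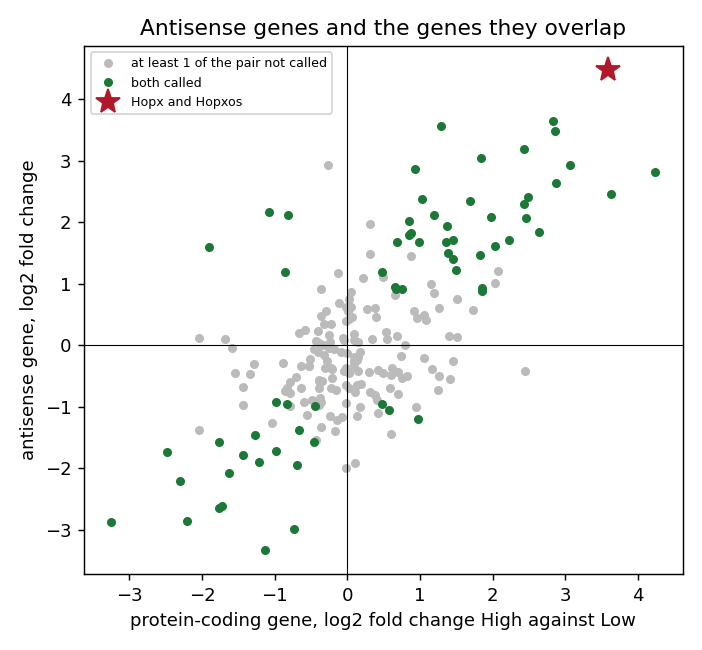
Log2 fold change of High against Low of the host gene on the horizontal axis and of the antisense gene on the vertical axis, for the 218 pairs by GENCODE M21 overlap, with Hopx and Hopxos marked at 3.58 and 4.48. Of the 65 pairs with both genes called, 58 lie in the quadrants of equal sign.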

How the data were processed

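RNA was sequenced from 8 sorted libraries of 4 animals. What the authors deposited is a single matrix of counts, with gene symbols as rows and libraries as columns. Per the submitters' processing notes, STAR 2.7.3 and DESeq2 were used with GRCm38, and the counting tool, its annotation and its strand setting are not given in the sources used here. That the values are unnormalized counts follows from their whole numbers and unequal totals. No row lacked a gene name. Labels do not say that each animal name is 1 mouse.

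Members and gene lists were chosen with earlier results of these data known. Counts were tested with edgeR 4.0.16 in R 4.3.3: TMM scaling, filterByExpr, a quasi-likelihood fit with sex and fraction, and Benjamini-Hochberg adjustment over all tested genes at 0.05. For sex, the counts of both fractions of an animal were summed, and the sex by fraction term was fitted on all 8 libraries. Standard errors are the fitted log2 fold change over the root of its F statistic. Profiles and log2 differences within animals used log2 CPM with a prior count of 2. Named genes are, beside the pair, the 5 nearest profiles of each, the neighbours in the order of change, the called genes of each list with the largest changes (up to 4, or 6 from lists of over 20) and genes fixed by name. Znrf3, Krt19, Itgb1, Smad2, Smad4, Arhgap27, Gm15831 and the uncalled late keratinocyte genes were named after their values were seen. Gene models are GENCODE M21, which held 53388 of the 55276 symbols. Alternatives were DESeq2 1.42.0, limma-voom (limma 3.58.1), other scalings and filters, an animal block, and each library left out. The antisense pairs by overlap and the fit without Male1 were added after seeing the data. Scripts were tested on simulated data.

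Same-named libraries come from 1 cell suspension that was sorted into both fractions, per the labels' protocols, and were treated as pairs in the block. Deviations from the fraction means correlated across genes, which are not independent replicates, at 0.43, 0.32, −0.02 and 0.28 for Female1, Female2, Male1 and Male2. Between different animals they ran from −0.37 to 0.35, the highest for High Male1 with Low Female1, so the pairing rests on the labels. Totals of 26285150 to 29301054 counts per library set the precision, and intervals on counts do not include variation between animals. Where nothing says more, p-values measure the spread between these libraries.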

Additional observations from a re-analysis of the deposited data

How the results depend on the processing

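Hopx and Hopxos stayed higher in High under every alternative run. The pair was chosen by this direction in the same libraries, so the alternatives describe the size of the change and do not test it. The log2 fold change was 3.02 to 3.73 for Hopx over 10 alternatives and 3.78 to 4.70 for Hopxos over 9, since Hopxos has no value where 10 counts are required in every library. Without 1 library it was 3.31 to 4.06 for Hopx and 4.07 to 4.87 for Hopxos. A replicate block for the animal gave 3.72 and 4.42, and the block moved the sex by fraction term of Hopx to 0.17. It changed no count of calls in a list by over 1.5 times, apart from a single partner gene called higher.

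With total counts alone 2194 genes were called higher and 8514 lower. Without 1 library the numbers were 3505 to 4077 and 3659 to 4262. The sex by fraction term ran from −0.84 to 1.07 for Hopx and from −0.090 to 3.64 for Hopxos without 1 library, turning sign without Male1 or Male2 libraries. The sex difference of Hopxos sums was 0.010 with RLE size factors, 0.016 with no filter and 0.021 in High libraries alone, against −0.85 in Low libraries alone, where Hopxos has few counts, and −0.91 to 0.55 without 1 animal, and that of Hopx −0.29 to −0.08. The causes were not tested. The Hopxos share was 0.870 to 1.51% in Low and 1.92 to 2.81% in High without 1 library. Depth limits Hopxos in Low most, with 2 to 33 counts per library.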
